A study of Homo sapiens with 6 samples.

Results

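EGR1, EGR2, EGR3, IER2, IER3, IER5, NR4A1, SRF and ELK1 were examined by name in BT-549/tet-WDR5shRNA cells, a line profiled by RNA-seq. They are the serum- and MAPK-induced immediate early genes outside AP-1, with SRF and ELK1 as their regulators, and all 9 were among the 19792 genes listed in the authors' table. The parent line, BT-549, comes from a human triple-negative breast cancer (TNBC). These cells carry a doxycycline-inducible shRNA against WDR5, a shared subunit of the COMPASS histone H3 lysine 4 methyltransferases, with a puromycin resistance gene. The vehicle group comprised 3 cultures in 0.1% DMSO and the DOX group 3 cultures in 500 ng/ml doxycycline. Both groups carry the shRNA construct, and no culture with doxycycline and a control shRNA was analysed here.

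The measurement used is the authors' mean normalized count, a gene's read count scaled by a size factor for each library and averaged over all 6 libraries of both groups. It gives the level of a gene in the series as a whole. It has no replicate error, and it says nothing of the difference between DOX and vehicle, so no gene is given as higher or lower in either group. The WDR5 level in each group was likewise not analysed here.

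Immediate early genes are transcribed within minutes of a growth factor or stress signal, without new protein synthesis. In the best known route, ERK phosphorylates ELK1, which sits with a dimer of serum response factor (SRF) on the CArG box of the serum response element. The EGR proteins made in response are zinc finger transcription factors, NR4A1 is an orphan nuclear receptor, and IER2, IER3 and IER5 are small response proteins.

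The CArG box, the sequence bound by SRF, was found near the annotated start of EGR1, EGR2 and SRF itself. These stretches are shown because they hold every CArG box found among the members. They are RefSeq promoter sequences of GRCh38.p14, written 5′ to 3′ on the strand of the gene, with the CArG boxes in capitals.

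EGR1, chr5:138465349-138465428, plus strand: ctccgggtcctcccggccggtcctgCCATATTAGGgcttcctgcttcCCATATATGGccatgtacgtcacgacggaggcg
EGR2, chr10:62816387-62816466, minus strand: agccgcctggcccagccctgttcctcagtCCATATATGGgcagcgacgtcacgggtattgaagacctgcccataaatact
SRF, chr6:43171189-43171268, plus strand: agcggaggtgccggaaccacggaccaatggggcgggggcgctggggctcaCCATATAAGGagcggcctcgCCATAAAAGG

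The EGR1 boxes begin 105 and 83 bases before the start, and the SRF boxes begin 30 and 10 bases before it. The EGR2 box begins 71 bases before the innermost of 3 annotated starts. The second EGR1 box and the EGR2 box have the same letters, CCATATATGG. The EGR1 and SRF stretches lie outside the annotated gene, directly upstream of it. The EGR2 stretch overlaps no EGR2 exon and lies in an intron of transcripts from the outer starts. It also overlaps another annotated gene on the minus strand, ENSG00000289487.

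Promoter windows, 250 bases before to 50 bases after each start, were at hand for 7 of the 9 members, and EGR3 and IER3 were not searched. A CArG box was found in 3 of these 7 genes, and in 438 of all 27305 genes with a window (1.60%). The motif CCGGAA, a strict form of the ETS site bound by ELK1 and its relatives, was found in SRF, IER2, IER5 and NR4A1, 4 of 7, beside 20.1% of all genes. SRF alone held both CCGGAA, 70 bases before the start, and CArG boxes. Looser forms of the ETS site were not searched, so EGR1 and EGR2 may hold one beside their CArG boxes. The GC box GGGCGG was found in EGR2, IER2, NR4A1, SRF and ELK1, 5 of 7, beside 48.3% of all genes. Among the 7, an NF-kB motif was found in SRF only, beside 7.09% of all genes. TATAAA was also found in SRF only, at base 15 after the start on the opposite strand, beside 14.0% of all genes, and in none of the 7 in the 250 bases before the start or on the own strand of the gene. No window of the 7 genes held the AP-1 motif TGANTCA, the cyclic AMP response element TGACGTCA or the EGR motif GCGTGGGCG, which 9.37%, 2.25% and 0.960% of all genes held. Both strands were searched, and the members were not chosen independently of their known regulation, so these shares are a description.

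**Figure D1:**
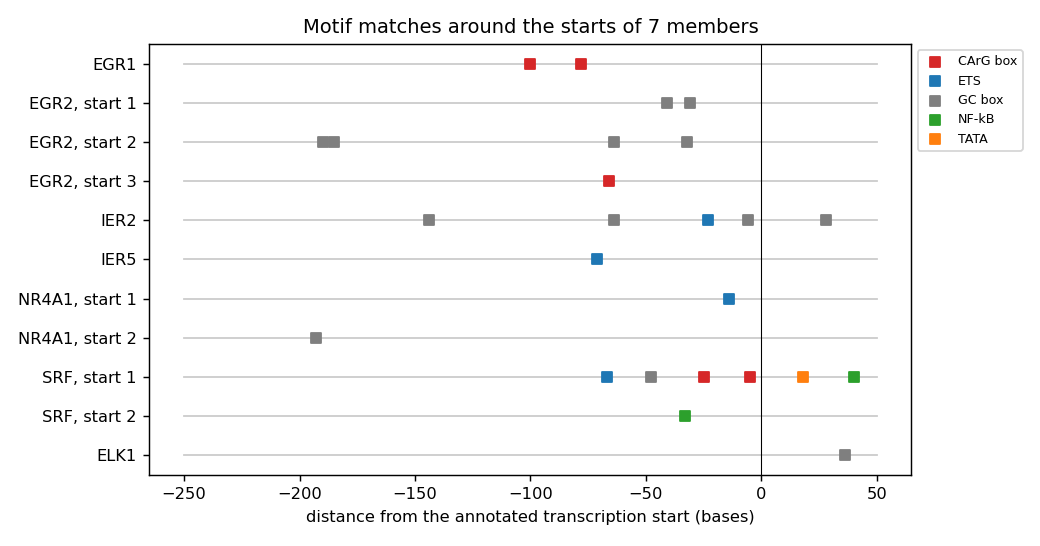
Motif matches on both strands in the promoter windows of 7 members, with 1 line for each annotated start and the distance from that start, in bases, on the horizontal axis; squares mark the middle of each match. The CArG boxes of EGR1, of the third start of EGR2 and of the first start of SRF all lie upstream of the start.

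SRF and ELK1 were both well expressed. SRF, on chromosome 6 (43171269 to 43181506), had a mean normalized count of 1725, and ELK1, on chromosome X (47635521 to 47650604), had 1994. Among the 13548 genes with a mean of at least 10 these levels were at percentiles 72.6 and 75.9, and the median of those genes was 677. Per kilobase of the longest coding transcript, which allows genes to be set against each other, ELK1 stood at 693 and SRF at 408. The median gene stood at 195 on that scale.

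Of the SRF partners, 4 of 5 had a mean of at least 1000, and myocardin did not. For scale, means of 934 and 1090 were at percentiles 57.5 and 61.8 of the genes with a mean of at least 10. ELK3 and ELK4, the other ternary complex factors, had means of 2611 and 2452, or 622 and 238 per kilobase. MRTFA and MRTFB, the actin-regulated coactivators listed as MKL1 and MKL2, had means of 1384 and 1266, or 306 and 144 per kilobase. MYOCD, the muscle coactivator, had a mean of 27.0, or 3.16 per kilobase, the lowest of the 5.

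The 3 EGR genes differed widely in level. EGR1, on chromosome 5 (138465479 to 138469303), had the highest mean of the 9 members, 4196, at percentile 89.7. EGR2, on chromosome 10 (62811996 to 62819167), had 99.3, at percentile 20.1. EGR3, on chromosome 8, had 56.1, at percentile 14.96. Per kilobase the levels were 1338, 33.3 and 12.4, so that EGR1 was 40.1 times EGR2 and 108 times EGR3. EGR4, the fourth family member, had a mean of 0.494, which came from 3 reads over all 6 libraries. The EGR corepressors NAB1 and NAB2, which bind EGR1 and limit its activity, had means of 861 and 2211, or 191 and 888 per kilobase.

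The IER genes were spread over the upper and middle part of the range. IER3, a regulator of cell survival on chromosome 6 (30743199 to 30744548), had a mean of 4053. It has the shortest transcript of the 9 and was the highest per kilobase, at 3002, above 96.1% of the genes with a mean of at least 10 and a length. IER2, a nuclear protein encoded on chromosome 19 (13150411 to 13154911), had a mean of 2321 and 791 per kilobase. IER5, on chromosome 1 (181088700 to 181092900), is linked to HSF1 and phosphatase PP2A, and had a mean of 495 and 118 per kilobase, below the median gene on both scales. Its paralog IER5L had 2536 and 936 per kilobase, above IER5.

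NR4A1, on chromosome 12 (52022832 to 52059507), had a mean of 168 and 47.8 per kilobase. The paralogs NR4A2 and NR4A3, both orphan nuclear receptors, had means of 378 and 299, or 109 and 52.4 per kilobase. All 3 NR4A genes were below the median gene on both scales.

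Per kilobase the 9 members fell in the order IER3, EGR1, IER2, ELK1, SRF, IER5, NR4A1, EGR2 and EGR3. With the union of all exons as the length, NR4A1 (23.0) and EGR2 (26.8) changed places and the other 7 kept theirs. All 9 members together held 0.0569% of the summed means, and 5 of the 9 had a mean of at least 1000. Whether neighbours in this order differ beyond the spread between cultures cannot be given from a pooled mean.

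**Figure D2:**
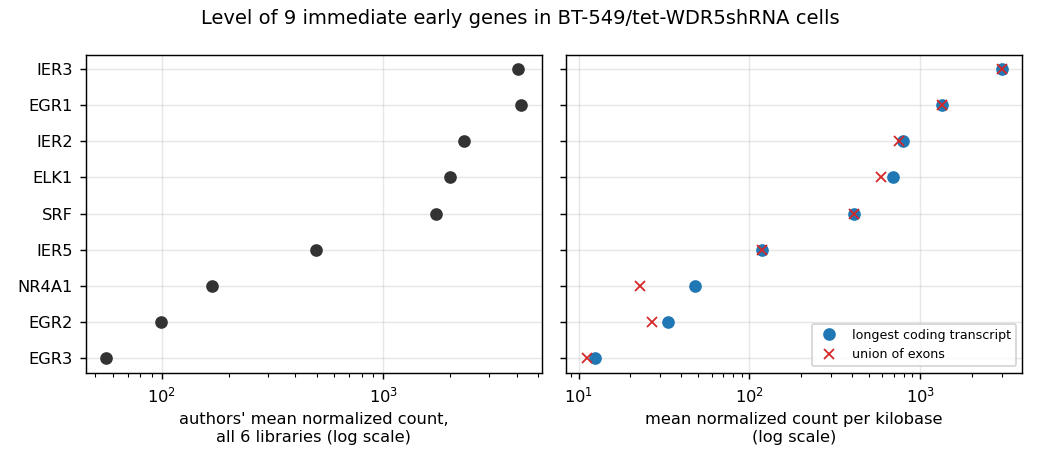
Authors' mean normalized count of the 9 members over all 6 libraries (left) and the same mean per kilobase (right), both on log axes; circles use the longest coding transcript and crosses the union of exons. Means run from 56.1 for EGR3 to 4196 for EGR1, and IER3 is the highest per kilobase.

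The means of EGR2 and EGR3 could be traced back to reads of single libraries. A mean normalized count takes the whole reads of each library, divided by its size factor, and averages them over the 6 libraries. Each read thus has a weight set by its library, which is smaller where the size factor is larger. Genes with 1 read in 1 library gave the first values of the 6 weights, which were then refined on other genes of low mean. The libraries are named A to F from the largest to the smallest size factor, which were 1.3440, 1.1618, 1.1591, 0.9675, 0.7925 and 0.7367. The table does not say which library belongs to which group, so none was assigned to DOX or vehicle and no groups were compared. The intervals below are exact 95% Poisson intervals and cover counting error only.

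EGR3 had 1 set of whole reads that gives its mean, with 324 reads in all. Libraries A, B and D held 39, 24 and 27 reads, and libraries C, E and F held 104, 73 and 57. The normalized counts were 29.0 (interval 20.6 to 39.7) in A, 20.7 (13.2 to 30.7) in B, 89.7 (73.3 to 109) in C, 27.9 (18.4 to 40.6) in D, 92.1 (72.2 to 116) in E and 77.4 (58.6 to 100.2) in F. C, E and F were high and A, B and D low, and no interval of the first 3 overlapped one of the other 3. The median of the 6 was 53.2, and the highest library was 4.46 times the lowest, whereas the largest size factor was 1.82 times the smallest. PTPRC, a leukocyte marker, had 29.0 to 33.9 in C, E and F and 55.8 to 58.8 in A, B and D. Its intervals in A, B and D overlapped that in F (22.0 to 50.1), and any relation to the EGR3 values was not tested.

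Among the 243 other genes with a mean of 50 to 62 the median ratio of highest to lowest library was 1.75, and 5 of them (2.06%) had a larger ratio than EGR3. In 15 of the 243 (6.17%) the intervals of the 3 highest libraries also lay clear of those of the 3 lowest. C, E and F were the high libraries in 11 of these 15 genes, as for EGR3, and A, B and D in the other 4.

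**Figure D3:**
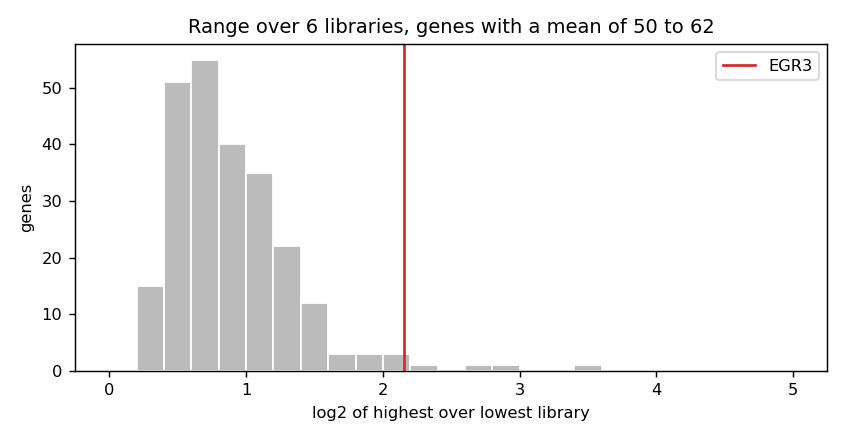
Number of genes by the log2 ratio of the highest to the lowest of 6 libraries, for the 243 other genes with a mean normalized count of 50 to 62, with EGR3 as a vertical line. EGR3 lies in the upper tail, where 5 genes have a larger ratio.

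EGR2 had 2 sets of whole reads that give its mean equally well, and the mean alone does not tell them apart. In the first, libraries A to F hold 31, 64, 46, 27, 293 and 59 reads, which are normalized counts of 23.1, 55.1, 39.7, 27.9, 369.7 and 80.1, with E far above the rest. In the second they hold 47, 49, 186, 48, 126 and 110 reads, which are normalized counts of 35.0, 42.2, 160.5, 49.6, 159.0 and 149.3. C, E and F are then the high libraries and A, B and D the low ones. The highest library is 16.0 times the lowest in the first set and 4.59 times in the second. The search went up to a mean of 100, and the other 7 members, all with higher means, were not traced back to single libraries.

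**Figure D4:**
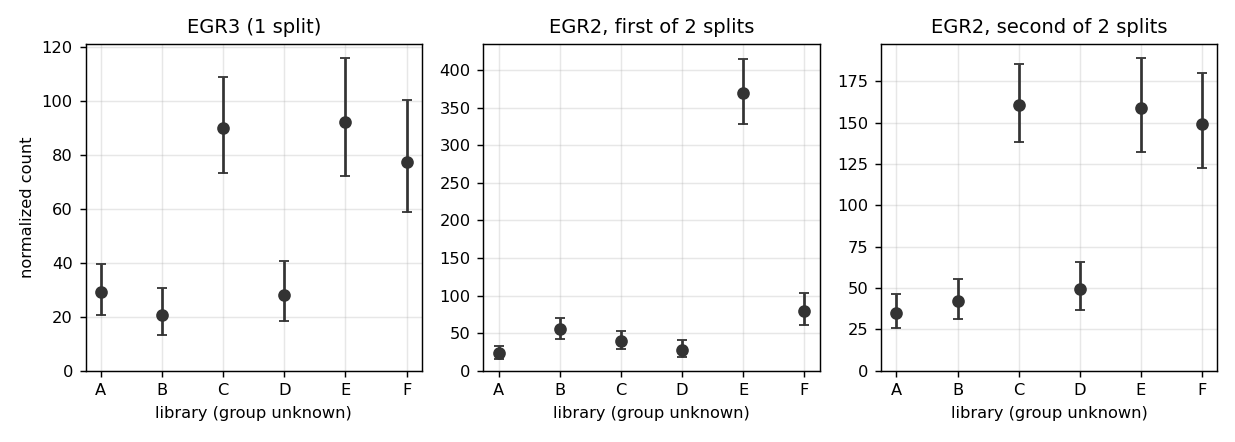
Normalized count of EGR3 and of both possible sets for EGR2 in libraries A to F, whose groups are unknown; bars are exact 95% Poisson intervals for counting error. EGR3 is at 77.4 to 92.1 in C, E and F and at 20.7 to 29.0 in A, B and D.

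The kinases that lead to ELK1 and the EGR genes were listed throughout. All 17 genes of the relay from RAS through RAF, MEK and ERK to the RSK, MSK and MNK kinases had a mean of at least 10, and 11 had at least 1000. NRAS was the highest, at 10133, and HRAS the lowest, at 267. Of 9 further immediate early genes, 8 were listed, with a median of 3330, and NPAS4 was not analysed here. MCL1, a survival protein, was the highest at 20809, and ARC, known from neurons, the lowest at 10.3.

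The markers of the labelled cell type were mixed. ESR1 and PGR, the hormone receptors, had means of 0.790 and 0.801, each from 5 reads in all. ERBB2 had 1221, the highest of the 9 epithelial and luminal markers, and FOXA1 was the lowest at 0.516. The ERBB2 level was at percentile 64.5 and stood at 255 per kilobase, beside 195 for the median gene. The mesenchymal genes VIM, FN1, ZEB1 and CDH2 had 47782, 30461, 7333 and 4093, whereas the basal keratins KRT5 and KRT14 had 0.909 and 7.11. Of the markers of other cell types, PTPRC (leukocytes) had 44.7, PECAM1 and CDH5 (endothelium) 2.86 and 0.172, and CD3E was not analysed here.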

How the data were processed

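RNA was isolated from triplicate cultures, and stranded poly(A) libraries were made with TruSeq. The paper names Trizol for the RNA and the sample records a column kit. The authors aligned reads to GRCh38 with STAR and normalized and compared gene counts with DESeq2. The paper adds a suffix to the genome name that may mark an annotation release. The counter and the low-count filter are not given in the sources used here.

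The deposited table has 1 row per gene symbol. The authors deposited for each gene a mean normalized count over all 6 libraries, treated here as a signal. The other columns hold the authors' own comparison of DOX with vehicle (log2 fold change, its standard error, test statistic, p-value and adjusted p-value) and were not used. The table has no column of a single sample, so the count test planned for DOX against vehicle was not run.

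Levels were ranked among the 13548 genes with a mean of at least 10. Lengths came from GENCODE release 44 (GRCh38), matched for 17724 symbols directly and 592 through older names. These cover 96.1% of the ranked genes, and coordinates are from that annotation, not the authors' files. A member's level per kilobase is its mean over the longest coding transcript. Poly(A) reads of paralogs and overlapping genes depend on the counter and were not checked.

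The 6 size factors were first read off genes with 1 read in a single library. They were then refined by least squares on genes with means of 1 to 3 and of 2.67 to 8. Exactly 1 split into whole reads was found for each of 1489 genes with means of 1 to 3 and 1437 genes with means of 2.67 to 8. These genes also served to fit the size factors, so their splits are no separate check. Each of 244 genes with means of 50 to 62, which were not used in the fit, also had exactly 1 split. The search was tested on simulated data. Absolute depth per library is unknown. The means sum to 26551206. RefSeq promoter windows of GRCh38.p14 were searched for 8 motifs on both strands (35116 windows, 27305 genes).

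The members and lists were chosen with earlier results of these data known. All 9 members are named, with every gene of the lists of 6 or fewer and, in longer lists, the highest, the lowest and any not listed. One marker of these lists is not reported here. BTG2 was named after its values were seen. Alternatives were other rank sets, the union of exons as the length, other motif windows, strands and mismatches, and leaving out each library. Python 3.11.15 with numpy 2.4.6, pandas 2.3.3, scipy 1.17.1 and matplotlib 3.10.9 was used.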

Additional observations from a re-analysis of the deposited data

How the results depend on the processing

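No paired analysis was possible because the deposited table has no column of a single sample, and the replicate numbers in the labels cannot be tied to its values. For the same reason DOX against vehicle was not tested under another normalization, without a filter or without each replicate. The identity between EGR proteins was not computed, since no protein sequences were at hand. The count of members with a CArG box stayed at 3 under every alternative tried. The CArG pattern is the same on both strands, and allowing a mismatch can only add matches. Of these alternatives, only the shorter window could have lowered the count. The share of all genes with one was 1.44% in the 250 bases before the start alone and 9.88% when 1 mismatch in the A/T core was allowed. On the own strand of the gene, CCGGAA was found in 3 of the 7 members and 11.5% of all genes. In the 250 bases before the start, the GC box was found in 4 of the 7. TATAAA was found in 0 of the 7 under both. Leaving out each library in turn, the median of EGR3 ranged from 29.0 to 77.4 and the ratio of highest to lowest library from 3.30 to 4.46. The median fell to 29.0 without C, without E and without F. Ranks depend on the genes ranked. EGR3 was at percentile 41.8 of all genes listed and 1.10 of genes with a mean of at least 50. Depth limits EGR4 most, with 3 reads in all.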

Other observations

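The low means of other signal-response genes were traced back to the same 6 libraries, whose groups are unknown. BTG2, an antiproliferative immediate early gene picked after its values were seen, had normalized counts of 116.8, 121.4, 26.7, 130.2, 16.4 and 24.4 in A to F. Its values were high in A, B and D and low in C, E and F, and fell into separate clusters, with the sides opposite to those of EGR3 (29.0, 20.7, 89.7, 27.9, 92.1 and 77.4). MYOCD had 14.9, 18.1, 28.5, 18.6, 42.9 and 39.4, with the 3 lowest values in A, B and D. The MYOCD interval of E (29.7 to 59.9) lay above those of A, B and D. That of C (19.6 to 40.0) overlapped all 3, and that of F overlapped those of B and D but not A. ARC had 7.44, 5.16, 20.7, 6.20, 10.1 and 12.2, with C the highest and the 3 lowest values again in A, B and D. The ARC intervals of A, B and D overlapped those of E and F. PTPRC had 58.8, 56.8, 33.6, 55.8, 29.0 and 33.9, with A, B and D the highest and their intervals overlapping that of F. The epithelial genes KRT8 (50.6, 54.2, 54.4, 47.5, 69.4 and 67.9) and CDH1 (44.6, 39.6, 72.5, 53.7, 83.3 and 63.8) also had their 3 lowest values in A, B and D. All KRT8 intervals overlapped one another, and for CDH1 those of A, B and D overlapped that of F. The basal keratin KRT14 went the other way, with 12.6, 7.75, 3.45, 12.4, 5.05 and 1.36 in A to F. It had 47 reads in all, and its intervals in A, B and D overlapped those of C, E and F. The highest library was 1.46 times the lowest for KRT8 and 2.10 times for CDH1, beside 4.46 for EGR3. Without regard to the counting intervals, C, E and F were the 3 highest libraries in 91 of the 243 other genes with a mean of 50 to 62 (37.4%), and A, B and D in 39 (16.0%). What sets A, B and D apart from C, E and F was not tested, and treatment and any other difference between libraries cannot be told apart here.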
